A study of Rattus norvegicus with 8 samples.

Results

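The cartilage-linked miRNAs miR-140 and miR-455, each with a 5p and a 3p arm, were followed in the synovial tissue of rat knees, the lining of the joint. They were picked out by name in the array files, and the choice of these miRNAs was made with earlier results of these data known: 4 of the 758 rat miRNAs on the array, covered by 7 of its 1806 probes. Total RNA from left knees of Sprague-Dawley rats was measured on 8 single-colour arrays. ACLT stands for transection of the anterior cruciate ligament, an operation used to model osteoarthritis, and was done in 4 samples; in the 4 sham-operated samples the ligament was exposed and left whole. The tissue came from the side of the knee away from the incision; the series title gives 14 days and the treatment text 2 weeks after surgery, while the design text gives 7 days. The age of the animals is not given in the sources used here, and no label says whether each numbered replicate is its own animal, so the spread behind the p-values may be technical. The comparison asks whether these miRNAs differ in the synovium after the ligament is cut.

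miR-140 is best known from chondrocytes, the cells of cartilage, where the transcription factor Sox9 drives it. Mice without it have short skeletal elements and lose cartilage earlier, and in mouse cartilage its 5p arm acts on the message of Adamts5, an enzyme that cuts aggrecan. miR-455 is likewise expressed in developing and adult cartilage under Sox9 and is carried by a gene for a fibrillar collagen. Both arms of each hairpin can be loaded into Argonaute, and the seed, bases 2 to 8 from the 5′ end of the mature RNA, sets which messages an arm can pair with.

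RefSeq (build GRCr8) holds mature sequences for 3 of the 4 members, shown here because the arms of 1 hairpin carry different seeds; capitals mark the seed.
miR-140-5p: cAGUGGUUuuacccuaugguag
miR-140-3p: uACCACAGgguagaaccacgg
miR-455-3p: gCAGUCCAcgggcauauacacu
The 3 seeds differ from each other, and no other rat mature miRNA in the table shares one of them. The hairpins that carry these arms are shown with the listed mature arms in capitals.
Mir140: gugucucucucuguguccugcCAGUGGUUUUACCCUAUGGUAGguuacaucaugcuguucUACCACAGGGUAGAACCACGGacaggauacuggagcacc
Mir455: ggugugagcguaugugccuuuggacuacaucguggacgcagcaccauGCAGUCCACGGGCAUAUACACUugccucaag
Mir140 lies at chr19:52375293-52375391 on the plus strand, inside Wwp2, a ubiquitin ligase gene on the same strand. Mir455 lies at chr5:81704834-81704911 on the plus strand, inside Col27a1, the collagen gene, also on the same strand. The table used does not give exons, so the position within each host gene is not stated.

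Both arms of miR-140 were measured with ease in the synovium, miR-455-3p only near the limit of the arrays and miR-455-5p hardly at all. The scanner software called miR-140-5p and miR-140-3p detected on all 8 arrays. It called miR-455-3p detected on 4 of 4 ACLT and 3 of 4 sham arrays, and miR-455-5p on 1 of 4 ACLT and 0 of 4 sham arrays. None of the 3 members tested passed the limma test of ACLT against sham synovium; miR-455-5p was too dim to test. Of the markers of tissue type, all 3 mesenchymal miRNAs listed (miR-199a-3p, miR-199a-5p and miR-214-3p) were detected, and 0 of 7 epithelial miRNAs were. On at least 1 array, 6 of 8 striated muscle, 4 of 4 red cell and 5 of 5 leukocyte miRNAs were detected too. The same held for 1 of 2 endothelial and 2 of 2 smooth muscle miRNAs. The arrays hold no messenger RNA, so the cells that carry the miR-140 signal, synovial or cartilage, were not identified, and in bulk tissue fewer cells of a type and less RNA per cell cannot be told apart.

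The arrays differed in brightness, which touches every value below. The 75th percentile of signal, taken over the 136 probes that every array measured well above background, was 797, 1097, 353 and 305 intensity units for ACLT replicates 1 to 4, against 289, 317, 353 and 1185 for sham replicates 1 to 4. ACLT replicates 1 and 2 and sham replicate 4 were thus the 3 brightest arrays, and the other 5 lay close together. Between 10.5% and 17.0% of spots per array were well above background and 0 were saturated. The scaled level used here is log2 of a probe's signal divided by its array's 75th percentile, with a floor at -4.48 for signals too dim to rank. A miRNA is represented by its brighter probe, and levels are not compared between probes, since probes differ in how strongly they bind.

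rno-miR-140-5p (miR-140-5p) had a mean scaled level 1.31-fold higher after ACLT, with an interval that held a fall as well as a rise. Its processed signal was 226, 372, 61.7 and 52.8 intensity units on ACLT replicates 1 to 4, against 63.9, 56.5, 38.3 and 277 on sham replicates 1 to 4. The signal was high on the 3 brightest arrays, in both groups, and low on the other 5. After scaling, the log2 levels were -1.82, -1.56, -2.52 and -2.53 on the ACLT arrays, and -2.18, -2.49, -3.20 and -2.10 on the sham arrays. ACLT replicates 1 and 2 stood above all sham arrays, ACLT replicates 3 and 4 lay below 3 of the 4 sham arrays, and sham replicate 3 was the lowest of all, so the groups overlapped. The ACLT arrays averaged -2.11 ± 0.49 and the sham arrays -2.49 ± 0.50 (SD, n = 4 each). The log2 difference was 0.38 (SE 0.33, 95% interval -0.39 to 1.16), with a limma adjusted p of 0.840 over 113 tested miRNAs. In fold terms the interval ran from 0.762 to 2.24.

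rno-miR-140-3p (miR-140-3p), the other arm of the same hairpin, showed a smaller difference with as wide an interval. Its processed signal was 218, 384, 66.0 and 61.5 intensity units on ACLT replicates 1 to 4, against 93.1, 73.0, 47.0 and 219 on sham replicates 1 to 4. After scaling, its log2 levels were -1.87, -1.51, -2.42 and -2.31 on the ACLT arrays, and -1.64, -2.12, -2.91 and -2.43 on the sham arrays. ACLT replicate 2 was again the highest and sham replicate 3 again the lowest, while sham replicate 1 was the second highest of the 8. The ACLT arrays averaged -2.03 ± 0.42 and the sham arrays -2.27 ± 0.54 (SD, n = 4 each). The log2 difference was 0.25 (SE 0.32, 95% interval -0.50 to 0.99), which is 1.19-fold, with a limma adjusted p of 0.840.

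Both results were read against all 113 tested miRNAs, of which limma called 0 at an adjusted p of 0.05 (percent called 0), with 8 (7.08%) at an unadjusted p under 0.05. The groups were free of overlap for 0 of the 113, so the overlap seen for miR-140 was shared by every tested miRNA. In order of difference, miR-140-5p ranked 6 and miR-140-3p ranked 12 from the highest of 113. The median difference over all tested miRNAs was -0.07, with 33.6% of the differences above 0 and 64.6% below.

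**Figure D1:**
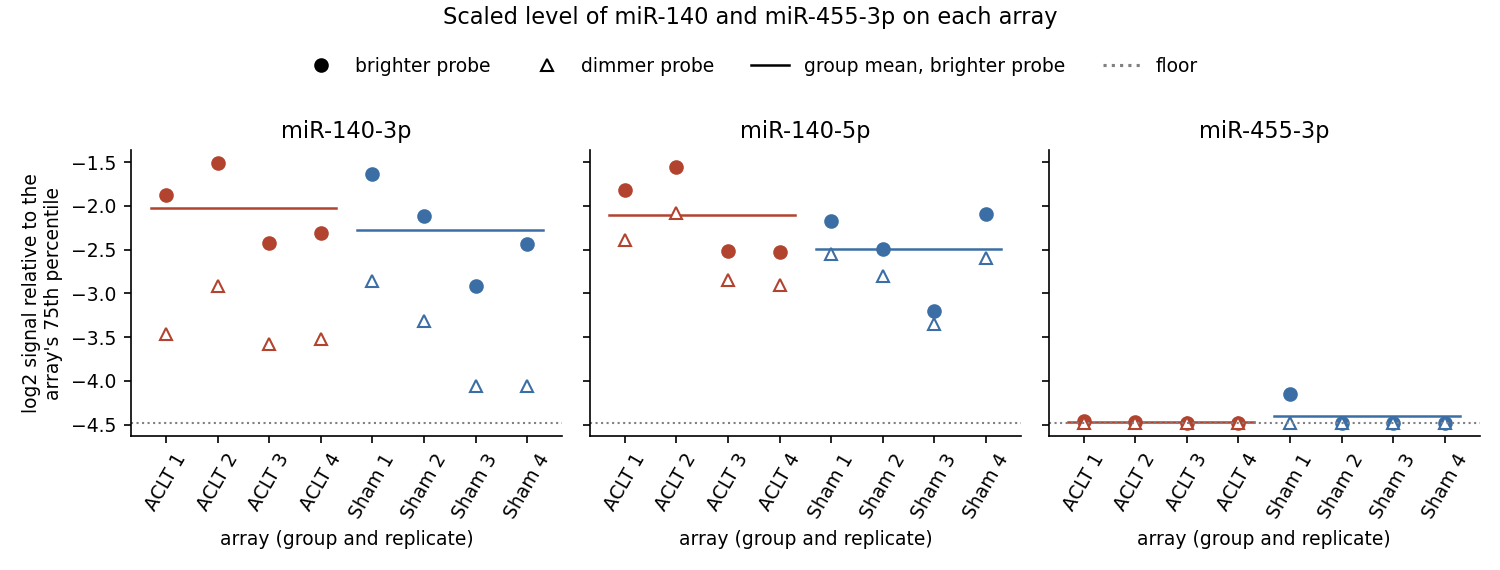
Scaled level (log2 of signal over the array's 75th percentile, y axis) of miR-140-3p, miR-140-5p and miR-455-3p on each of the 4 ACLT (red) and 4 sham (blue) arrays (x axis); filled circles are the brighter probe, open triangles the dimmer probe, horizontal lines the group mean of the brighter probe and the dotted line the floor at -4.48. In both miR-140 panels ACLT replicate 2 is highest and sham replicate 3 lowest by the brighter probe and the groups overlap, and miR-455-3p lies on or next to the floor.

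Each miR-140 arm was read by 2 probes of 8 spots each on every array. The coefficient of variation over spots was 2.46% to 8.30% per array for the brighter probe of miR-140-5p and 2.19% to 9.78% for that of miR-140-3p. Across the 8 arrays the scaled level of miR-140-5p spanned 3.13-fold and that of miR-140-3p 2.63-fold. The dimmer probe gave a log2 difference of 0.27 (SE 0.25) for miR-140-5p and 0.21 (SE 0.31) for miR-140-3p, the same direction as the brighter probe in both arms. Of 64 spots over the 8 arrays, 61 were well above background for the dimmer probe of miR-140-3p and 64 for each of the other 3 probes of miR-140. The spread over spots holds only the error within an array, and error between arrays cannot be told apart from the spread between samples.

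The ratio of the arms within an array is free of any factor that scales the whole array, and only its change from array to array can be read. The log2 ratio of miR-140-3p to miR-140-5p by the brighter probes was -0.05, 0.04, 0.10 and 0.22 on ACLT replicates 1 to 4, against 0.54, 0.37, 0.29 and -0.34 on sham replicates 1 to 4. The 4 ACLT arrays lay between sham replicate 4 and the other sham arrays, with a mean of 0.08 ± 0.11 on ACLT arrays against 0.22 ± 0.38 on sham arrays (SD, n = 4 each). The difference in spread was not tested. The mean difference of the log2 ratio was -0.14 (exact two-sided permutation p = 0.543 over 70 arrangements, the smallest possible being 0.0286; adjusted p = 0.857 over 4 ratios). By the dimmer probes it was -0.06 (exact permutation p = 0.83, adjusted p = 0.857 over the same 4 ratios). Within slide row 1, which held replicates 1 and 2 of both groups, the difference was -0.46, and within row 2 it was 0.18, with 2 arrays a group in each.

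The lowest arm ratio of each group was found on a bright array. By the brighter probes, the 3 brightest arrays held the 3 lowest ratios, -0.34 to 0.04, and the 5 other arrays 0.10 to 0.54. By the dimmer probes the same 3 arrays were at -1.46 to -0.83 and the others at -0.73 to -0.30. The 2 probes of one arm, which read the same miRNA, also drew apart with brightness. The brighter probe of miR-140-3p exceeded the dimmer by 1.40 to 1.62 (log2) on the 3 brightest arrays and by 1.15 to 1.22 on the others, and for miR-140-5p by 0.50 to 0.57 against 0.15 to 0.38. The part of brightness in the arm ratio was not tested.

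**Figure D2:**
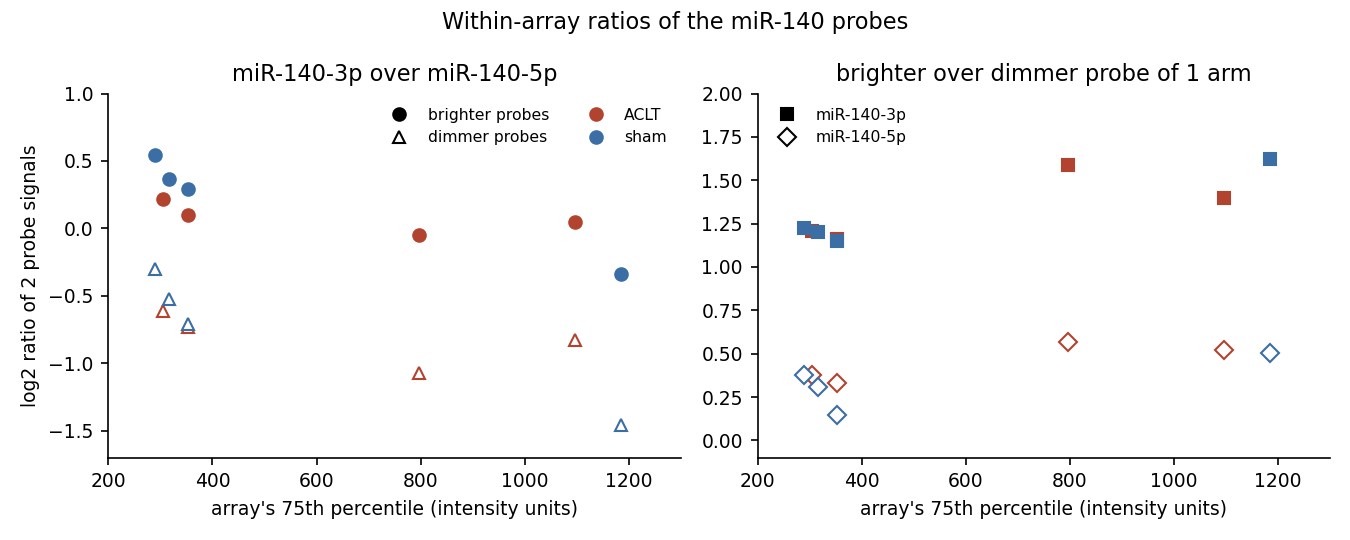
Left, log2 ratio of miR-140-3p to miR-140-5p (y axis) by the brighter (filled circles) and dimmer probes (open triangles) against the array's 75th percentile in intensity units (x axis); right, log2 ratio of the brighter to the dimmer probe of miR-140-3p (squares) and of miR-140-5p (diamonds). ACLT arrays are red and sham arrays blue; the 3 brightest arrays, at 797 units and above, have the lowest arm ratios and the highest ratios between probes of one arm.

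rno-miR-455-3p (miR-455-3p) was close to the background of the arrays, and its direction after ACLT could not be settled. Its brighter probe gave 36.3, 49.7, 14.1 and 13.0 intensity units on ACLT replicates 1 to 4, against 16.3, 11.8, 10.8 and 40.3 on sham replicates 1 to 4. Negative-control spots averaged 4.71 to 6.51 units per array, and 95% of them lay below 11.9 to 14.8 units. At least 0.5 of the probe's spots were well above background on 2 of 4 ACLT and 1 of 4 sham arrays, and these were the 3 brightest arrays. After scaling, 2 of 4 ACLT and 3 of 4 sham arrays were at the floor, and the others lay between -4.47 and -4.15. It entered the test because all 4 ACLT arrays detected it. The log2 difference was -0.07 (SE 0.08, 95% interval -0.27 to 0.13, limma adjusted p = 0.840). This difference rested on sham replicate 1 at -4.15, without which it was 0.0079. Arrays at the floor share the same value, which narrows this SE and interval, so they do not measure the spread of the signal. With a floor 4 times lower, which no value of this probe reached, the sign turned and the interval widened. The difference was then 0.17 (SE 0.20, 95% interval -0.30 to 0.64, limma adjusted p = 0.867). The levels were then -4.46, -4.47, -4.65 and -4.55 on the ACLT arrays and -4.15, -4.75, -5.03 and -4.88 on the sham arrays, so that 1 sham array was highest and the 3 others lowest. The dimmer probe was below the floor on all 8 arrays and gave no order.

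rno-miR-455-5p (miR-455-5p) was read by 1 probe with 16 spots, and 0 of its 128 spots over the 8 arrays were well above background. Its signal was 7.54, 13.0, -0.26 and 0.87 intensity units on ACLT replicates 1 to 4, against 0.89, 1.66, 1.5 and 4.94 on sham replicates 1 to 4. The highest values again belonged to the 3 brightest arrays. The value of 13.0 on ACLT replicate 2, the array on which the software called it detected, stood above the 95th percentile of 11.9 of that array's negative-control spots. All 8 arrays were below the floor after scaling, so no fold is given, and miR-455-5p was not among the tested miRNAs.

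**Figure D3:**
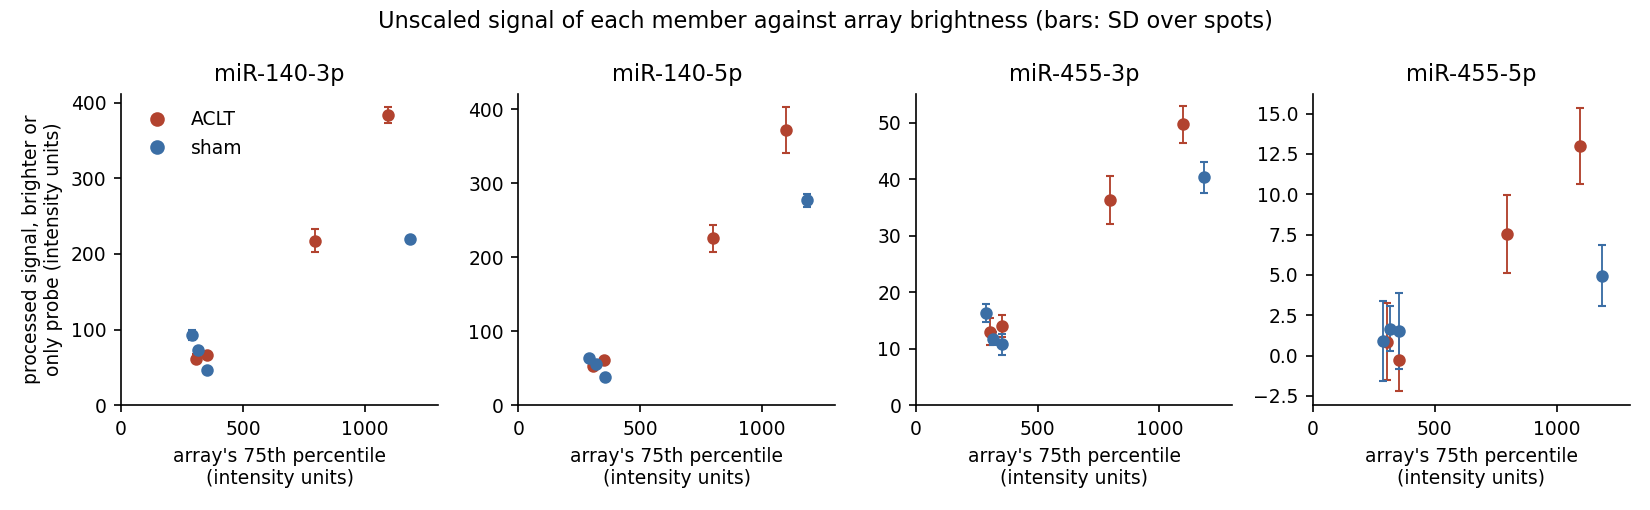
Processed signal of the brighter or only probe of each member (y axis, intensity units; bars are the SD over spots) against the array's 75th percentile (x axis, intensity units) for ACLT (red) and sham (blue) arrays. All 4 members are highest on the 3 brightest arrays, 2 of ACLT and 1 of sham, and the 5 dimmer arrays lie together.

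The miR-140 difference moved with features of single arrays and of the slide. Among the 5 dimmer arrays alone, 2 of ACLT and 3 of sham, the difference was 0.10 for miR-140-5p (limma adjusted p = 0.935) and turned to -0.14 for miR-140-3p (adjusted p = 0.925). With log2 brightness as a covariate the differences were 0.26 and 0.21 (limma adjusted p = 0.785 and 0.811). Within slide row 1, where both ACLT arrays were bright and both sham arrays dim, miR-140-5p differed by 0.64 (95% interval 0.06 to 1.23, limma adjusted p = 0.196) and miR-140-3p by 0.18. Within row 2 the values were 0.13 (95% interval -1.43 to 1.69, limma adjusted p = 0.971) and 0.31 (adjusted p = 0.813). Without ACLT replicate 2 the differences were 0.20 for miR-140-5p and 0.07 for miR-140-3p, and without sham replicate 3 they were 0.15 and 0.03. Without sham replicate 1 they were 0.49 and 0.46.

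Under other scalings of the arrays both arms kept a positive difference. For miR-140-5p it ran from 0.18 when arrays were scaled to the labelling spike-in to 0.76 when all probes entered the 75th percentile, and for miR-140-3p from 0.04 to 0.62 under the same settings. A scaling moves all miRNAs together: the median over all tested miRNAs was -0.28 and 0.25 in those 2 settings. Relative to that median, miR-140-5p stood 0.46 and 0.51 higher and miR-140-3p 0.32 and 0.37 higher. The limma adjusted p stayed above 0.05 for both arms under all 30 alternatives run, at 0.196 or more for miR-140-5p and 0.527 or more for miR-140-3p. The 0.196 came from slide row 1 alone and the 0.527 from the fit without a filter, over all 758 miRNAs.

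**Figure D4:**
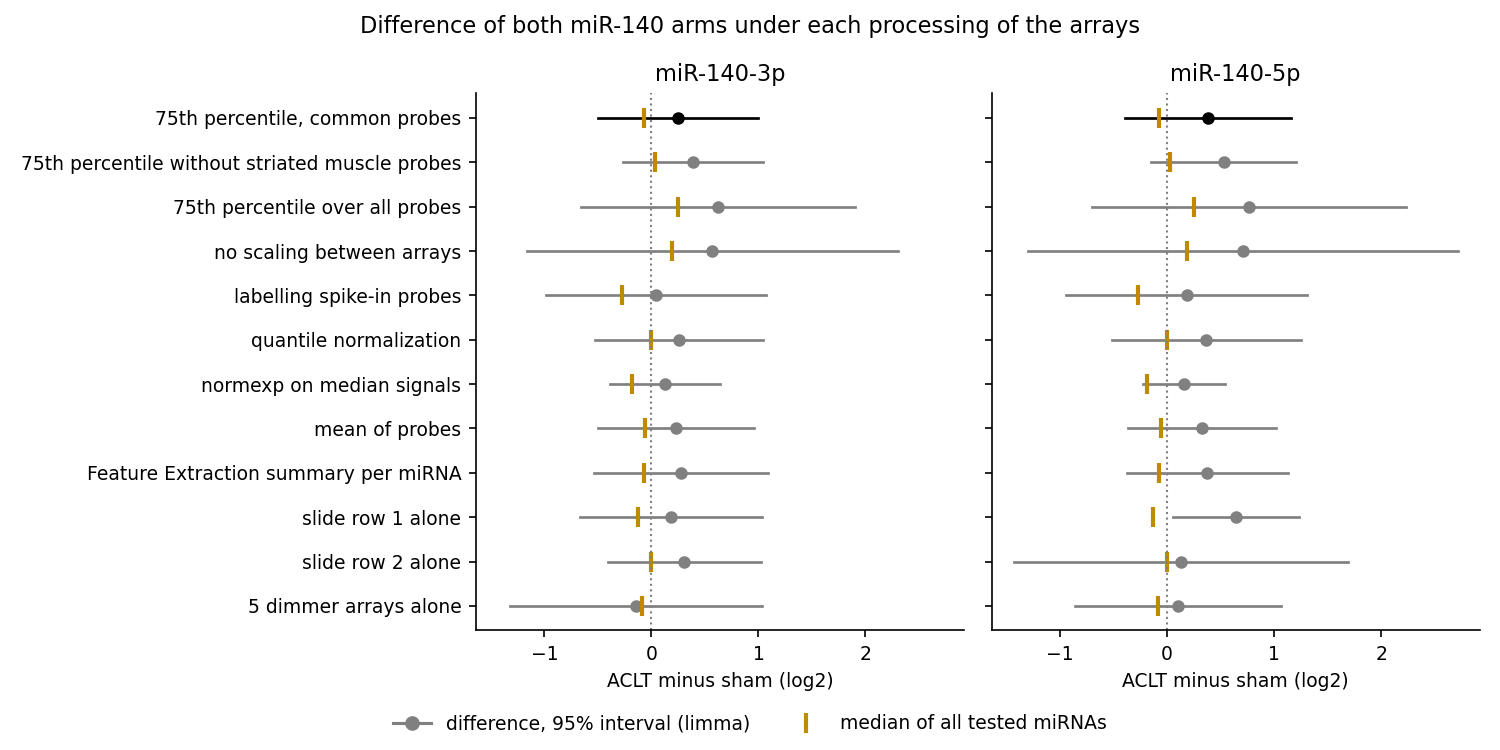
Log2 difference, ACLT minus sham (x axis), of miR-140-3p and miR-140-5p with its 95% interval from limma under each processing of the arrays (rows; the setting used in the text is black and on top). The upright marks are the median difference of all tested miRNAs in that setting; every interval holds 0 except that of miR-140-5p in slide row 1.

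Striated muscle miRNA also varied between the samples. Of 8 muscle miRNAs listed, 6 were detected on some array and 4 were tested, while miR-208a-3p and miR-208b-3p were not detected on any. The summed scaled signal of the list ranged from 0.122 to 16.4 on ACLT arrays and from 1.46 to 6.32 on sham arrays. ACLT replicate 2, which was highest for both miR-140 arms, had the least: miR-1-3p and miR-206-3p were at the floor there, against -0.11 to 2.24 on the other ACLT arrays and -1.65 to 0.88 on the sham arrays. With the scaling used here, all 4 tested muscle miRNAs had a higher mean after ACLT, with a median log2 difference of 0.47 (miR-1-3p 0.55, SE 1.46; miR-206-3p 0.27, SE 1.52), the same sign as both miR-140 arms, and none passed the test. With the mean muscle level as a covariate the difference was 0.49 for miR-140-5p (95% interval -0.09 to 1.07, limma adjusted p = 0.534) and 0.34 for miR-140-3p (adjusted p = 0.767). With muscle probes left out of the 75th percentile it was 0.53 (adjusted p = 0.615) and 0.39 (adjusted p = 0.689). Of 4 red cell miRNAs listed, 3 were tested, with 1 higher and 2 lower after ACLT (median -0.53, miR-451-5p -0.53). Of 5 leukocyte miRNAs listed, 3 were tested and 0 were higher (median -0.21, miR-142-3p -0.15). The mesenchymal list had 2 of 3 higher (median 0.09, miR-214-3p 0.09). The endothelial and smooth muscle lists each had only 1 of 2 members tested, miR-126a-3p at -0.20 and miR-143-3p at -0.30. None of these passed the test.

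The miRNAs whose levels followed miR-140 most closely over the 8 arrays included mesenchymal ones. Among 77 other tested miRNAs above the floor on every array, miR-214-3p was most like miR-140-3p, with a Pearson r of 0.97 and Spearman rho of 0.95. It kept an r of 0.95 when the 2 arrays farthest from the median of miR-140-3p, ACLT replicate 2 and sham replicate 3, were left out, and of 0.97 for deviations from the group means. The next were let-7b-5p (r 0.87, rho 0.76), miR-27b-3p (0.85, 0.86), miR-140-5p (0.85, 0.69) and miR-199a-5p (0.84, 0.64). Without those 2 arrays r was 0.74 for let-7b-5p, 0.57 for miR-27b-3p, 0.51 for miR-199a-5p and 0.48 for miR-140-5p. The 2 arrays were picked as the farthest for miR-140-3p, so leaving them out narrows its range and can lower r. For deviations from the group means the r between the 2 arms of miR-140 was 0.83. miR-140-5p was most like miR-34a-5p (r 0.92, rho 0.88), followed by miR-21-5p (0.92, 0.81), miR-199a-3p (0.90, 0.98), miR-27b-3p (0.88, 0.83) and miR-98-5p (0.85, 0.93). Without the same 2 arrays the r was 0.67 for miR-34a-5p, 0.71 for miR-21-5p, 0.77 for miR-199a-3p, 0.56 for miR-27b-3p and 0.71 for miR-98-5p. These arrays were also the 2 farthest for miR-140-5p, so leaving them out can lower r here too. The partner arm of miR-140-5p ranked 7 of 77. These correlations describe 8 arrays that share their scaling and their brightness, and no test was made of them.

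The samples behind the closest match can be read directly. miR-214-3p was at 0.70, 0.79, 0.28 and 0.41 on ACLT replicates 1 to 4 and at 0.80, 0.66, -0.01 and 0.36 on sham replicates 1 to 4 (scaled log2 level). As with miR-140-3p, ACLT replicate 2 and sham replicate 1 were the highest 2 arrays and sham replicate 3 the lowest. Its ACLT arrays averaged 0.54 ± 0.24 and its sham arrays 0.45 ± 0.36 (SD, n = 4 each), a log2 difference of 0.09 (SE 0.20, limma adjusted p = 0.952).

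**Figure D5:**
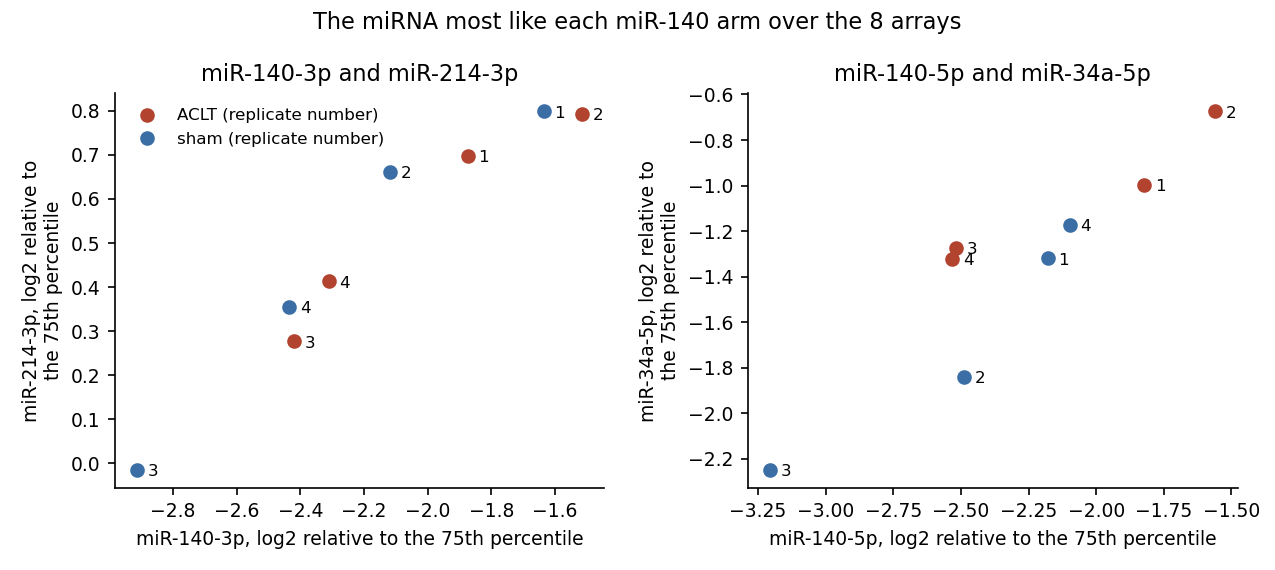
Scaled log2 level of the miRNA most like each miR-140 arm (y axis) against that arm (x axis) over the 8 arrays, miR-214-3p for miR-140-3p (left) and miR-34a-5p for miR-140-5p (right); red points are ACLT and blue points sham arrays, with their replicate numbers. Sham replicate 3 lies lowest in both panels and ACLT replicate 2 lies farthest right.

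Other miRNAs described in cartilage or chondrocytes, or linked to Sox9 or collagen messages, gave no call either. Of 22 listed, 12 were tested, and 9 of these had a higher and 3 a lower mean after ACLT, with 0 past the adjusted test by limma and 1 at an unadjusted p under 0.05. Over all 113 tested miRNAs 33.6% were higher and 7.08% had an unadjusted p under 0.05. The 12 all lay above the floor on every array, while only 78 of the 113 did, so these shares cover unlike sets. The list was also chosen with earlier results of these data known. The median difference of the list was 0.08, beside -0.07 over all tested miRNAs. When arrays were scaled to the labelling spike-in it was -0.12, beside -0.28 over all tested miRNAs. Leaving out sham replicate 3 gave -0.02 for the list and -0.11 over all tested miRNAs. Leaving out ACLT replicate 2 gave 0.02 and -0.08. The highest differences were those of miR-22-3p (0.34, SE 0.21), described in human osteoarthritic cartilage, miR-29c-3p (0.31, SE 0.20), which acts on collagen messages, and miR-27b-3p (0.14, SE 0.14), which acts on MMP13 in human chondrocytes. The lowest were those of miR-125b-5p (-0.38, SE 0.13), which acts on ADAMTS4 in human chondrocytes, miR-146a-5p (-0.13, SE 0.16), a feedback regulator of NF-kB signalling, and miR-101a-3p (-0.08, SE 0.22), which acts on Sox9 in rat chondrocytes. The 10 others were not detected on all 4 arrays of either group.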

How the data were processed

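Arrays were read, per the file headers, with Agilent Feature Extraction 10.7.3.1; the processed signal is an intensity that the software had background-subtracted and left unscaled between arrays. In the authors' deposited value table each intensity equals the software's summary for that miRNA (largest difference 0), with 0.1 where not detected. Per the labels, cRNA was made from 50 ng of total RNA with a kit meant for messenger RNA; whether it was used here is not settled. Control spots and outlier spots (9.01% to 11.1%) were left out and spots of a probe averaged. A probe was taken as well above background where 0.5 or more of its spots were, and a miRNA as detected where the software called it so. The floor of 0.0449 (log2 -4.48) is the median over arrays of the lowest scaled signal well above background. The test covered the 113 miRNAs that every array of 1 or both groups detected, by limma (version 3.58.1, R 4.3.3; a linear fit without covariates and moderated variances, p-values adjusted after Benjamini and Hochberg); single values by exact permutation. The limma fit was tried on simulated data with independent noise and changes larger than the miR-140 differences. That simulation did not cover scaling, floors or array brightness. Arrays lay on 1 slide with 1 scan date, in 2 rows. Named were the members, the 3 highest and 3 lowest of the cartilage list, 8 marker miRNAs, and the 5 miRNAs with the highest Pearson r to each miR-140 arm; miR-208a-3p and miR-208b-3p, the muscle markers that no array detected, and miR-466d were named after their values were seen. Members and lists were chosen with earlier results of these data known. Sequences are from RefSeq, GRCr8; the arrays' grid names rn4. The number of arrays limits the precision.

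Alternatives were other scalings, probe summaries, background correction, filters, floors, variance models, slide row, replicate number, and leaving out each array; the 5 dimmer arrays, brightness and muscle covariates, all settings for the cartilage list and the dimmer probes for the arm ratio were added after seeing the data. normexp (offset 50) used median signals, as mean signals are not among the columns used.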

Additional observations from a re-analysis of the deposited data

Results flagged for a closer look

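In 4 of the 32 sets of member values by group, 1 array stood far from the rest. Independent sets would give about 1.6 by chance, but these sets share arrays and miRNAs, so that figure is only a rough guide. Sham replicate 4 had a processed signal of 277 intensity units for the brighter probe of miR-140-5p, against 38.3 to 63.9 on the other sham arrays, with a gap of 0.893 times the range of that group. For the dimmer probe of miR-140-5p the same array gave 196 units against 34.6 to 49.2, a gap of 0.910 of the range. Sham replicate 4 also stood apart in the log2 ratio of the brighter to the dimmer probe of miR-140-3p, which was 1.62 there and 1.15 to 1.22 elsewhere among sham arrays (0.847 of the range). It was the brightest of the 8 arrays, and after scaling its miR-140-5p level of -2.10 lay next to that of sham replicate 1 at -2.18. Sham replicate 1 was set apart for miR-455-3p, at a scaled log2 level of -4.15 while the other 3 sham arrays were at the floor of -4.48. Their tie at the floor fixed the gap at the whole range (1), so this flag is set by the floor. Without the floor those 3 arrays lay at -4.75, -5.03 and -4.88.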

How the results depend on the processing

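The positive difference of miR-140-5p kept its sign under all 30 alternatives (0.10 to 0.76). That of miR-140-3p kept it under 29 of 30, turning to -0.14 in the 5 dimmer arrays alone. Filters, floors, variance models and blocks returned the same 0.38 and 0.25, so these alternatives could not turn either sign. Neither difference passed the test under any alternative. Leaving out each array gave 0.15 to 0.53 for miR-140-5p, 0.03 to 0.46 for miR-140-3p, -0.10 to 0.0079 for miR-455-3p, -0.32 to -0.03 for the arm ratio and -0.02 to 0.10 for the cartilage list. miR-455-3p turned positive with quantile normalization (0.30), no scaling (0.36), all probes in the 75th percentile (0.36) and the Feature Extraction summary (0.53). The median over all tested miRNAs was -0.0015, 0.19, 0.25 and -0.07 in those settings. miR-455-3p was also positive in the authors' value table (2.12), with a floor 4 times lower (0.17) and, as given above, without sham replicate 1. The value table lists sham replicate 3 at 0.1, the entry for a miRNA not detected, so 2.12 includes a placeholder. The size of its part was not tested. miR-455-5p, 0 at the floor, came to 0.19 with quantile normalization, 0.12 with the summary and 1.78 in the value table. It came to -0.21 with normexp and 0.019 with the floor 4 times lower, and it was not tested in the setting used. Only the fit without a filter included miR-455-5p, and its p there has no meaning, since every value was tied at the floor. The value table lists miR-455-5p at 13.8 on ACLT replicate 2 and at the entry of 0.1 on every other array, so 1.78 rests on that array alone. The arm ratio turned to 0.18 within slide row 2. The cartilage list had 0.40 with no scaling, 0.46 with the 75th percentile over all probes, 0.40 in the value table and -0.12 with spike-in scaling. The median over all tested miRNAs was 0.19, 0.25, 0.21 and -0.28 in those settings. limma called 0 miRNAs in the setting used, 1 in the value table (miR-466d, lower after ACLT, chosen after its value was seen) and 8 within slide row 1. None of them was a member. The value table has no floor and holds 0.1 where a miRNA was not detected. The part of that entry in the miR-466d difference of -6.46 was not tested. Replicate number as a block left the differences at 0.38 for miR-140-5p (limma adjusted p = 0.839) and 0.25 for miR-140-3p (adjusted p = 0.839), with 0 calls over all miRNAs. Deviations of same-numbered arrays correlated at -0.19, 0.59, 0.80 and -0.41 over 111 miRNAs. Differently numbered arrays ranged from -0.75 (ACLT replicate 2 with sham replicate 3) to 0.85 (ACLT replicate 4 with sham replicate 3). Arrays also differ in brightness and muscle miRNA, so these correlations cannot settle whether the numbers pair the samples. The covariates were not run for the arm ratio, and miR-455-3p has no value among miRNAs detected on all 8 arrays.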
